A study of Mus musculus with 8 samples.

Results

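Serpins and 3 further families of protease inhibitors, the Spink, Spint and Wfdc genes, were examined in MIN6 cells that received a Klf4 plasmid or an empty vector. The members were all genes of the count table whose symbol starts with Serpin and a clade letter from a to i, or with Spink, Spint or Wfdc and a number, without names that end in -ps. This gave 100 of 55536 genes: 28 Serpinb, 26 Serpina, 11 other serpin, 12 Spink, 5 Spint and 18 Wfdc genes. The annotation types 96 of them as protein-coding and 4 as pseudogenes, among them Serpinb1-ps1 and Serpina4-ps1, whose names end in -ps1 and so pass the rule. The rule itself used names alone, but it was set with earlier results of these data known.

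MIN6 is an insulin-producing line from a mouse pancreatic tumour driven by the simian virus large T antigen. Control cells were transfected with the pcDNA 3 empty vector and the others with pGloMyc-Klf4, in both cases for 48 h with a Lipofectamine reagent, a lipid that carries plasmid DNA into cells. Each group had 4 replicates labelled wild type, replicates 1 and 2 in batch 1 and replicates 3 and 4 in batch 2. The plasmid names differ in their backbone, so an effect of the backbone and one of Klf4 cannot be told apart. The extraction text speaks of islets, while every sample is named as the line. All samples come from 1 cell line, and nothing in the labels says how the replicate cultures were separated, so p-values measure the spread between these 8 libraries.

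Serpins are proteins of one fold that trap a protease by a large change of shape after the protease cuts their reactive loop. Clade b serpins stay mostly inside the cell, while most other clades are secreted into blood or tissue fluid. Spink proteins carry Kazal domains, Spint proteins Kunitz domains and Wfdc proteins whey acidic protein domains, each of which blocks serine proteases by plugging the active site. Klf4 is a zinc-finger transcription factor best known from the skin barrier, the gut epithelium and reprogramming to pluripotency.

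Total counts per library lay between 45417853 and 52731176. Klf4 had 1743 to 2060 counts in the control libraries and 205171 to 308667 in the Klf4 libraries, so every library matched its label. Markers of β cells summed to 25330 to 32110 CPM (counts scaled to library size) in control and 23660 to 32360 CPM in Klf4 libraries, with 5 of 10 lower and none higher. Markers of α cells summed to 588.9 to 710.4 and 602.9 to 704.9 CPM, with 2 of 4 tested higher, while those of δ cells stayed at or under 0.209 CPM in every library. Of all tested genes 15.5% were lower and 21.1% higher, and these marker lists are short. In bulk RNA, a change in the number of cells that express a gene and a change in RNA per cell cannot be told apart.

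Of the 100 members, 33 passed the filter on low counts and 67 did not. Of the 33 tested, 17 rose in Klf4-transfected cells and none fell (edgeR quasi-likelihood test, adjusted p under 0.05 over all genes). That is 51.5% of the tested members. Of all 18266 tested genes 36.6% changed, 21.1% higher and 15.5% lower, and with scaling on abundant genes 4370 were higher and 1644 lower, against 3856 and 2828. A log2 fold change (log2FC, Klf4 over control, here with its SE) of at least 1 with a call was reached by 9 of the 33 tested members (27.3%) and by 8.5% of all tested genes. Among these 9, Wfdc5, Serpinb5, Serpina12, Wfdc1 and Serpinb6c had too few control counts for the filter and passed it through the Klf4 libraries. Such genes could only come out higher, and the shares of 51.5% and 27.3% include them. In Serpinf2, control replicate 4, with 7 counts, fell short of the filter, so the controls alone would not have passed it. The same filter was used for all genes. The median log2 fold change was 0.24 over the 33 members, also with Wfdc5 at its lower bound, and -0.01 over all tested genes. In 14 members every Klf4 library lay above every control library, and in 1 member every Klf4 library lay below (17.2% and 8.93% of all tested genes). Without adjustment 20 members had a p under 0.05, of which 2 were lower (8086 and 3760 of all 18266 tested genes). The DESeq2 Wald test and limma-voom called no lower member either, while edgeR with DESeq2 size factors called 1, Serpina7.

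Summed over all 100 members, control libraries held 370.4 ± 2.79 CPM and Klf4 libraries 469.5 ± 13.8 CPM (SD, n = 4), on 45 to 54 members with at least 1 count per control library and 53 to 57 per Klf4 library. These sums are a description without a test. They were dominated by genes that were already abundant. Per kb of exonic length, the most abundant members in control cells were Serpinb6a at 26.3, Spint2 at 14.9, Serping1 at 9.30, Serpini1 at 8.03 and Serpina1b at 7.39 CPM per kb. The plot of levels in every library shows that the large rises began from much lower levels.

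**Figure D1:**
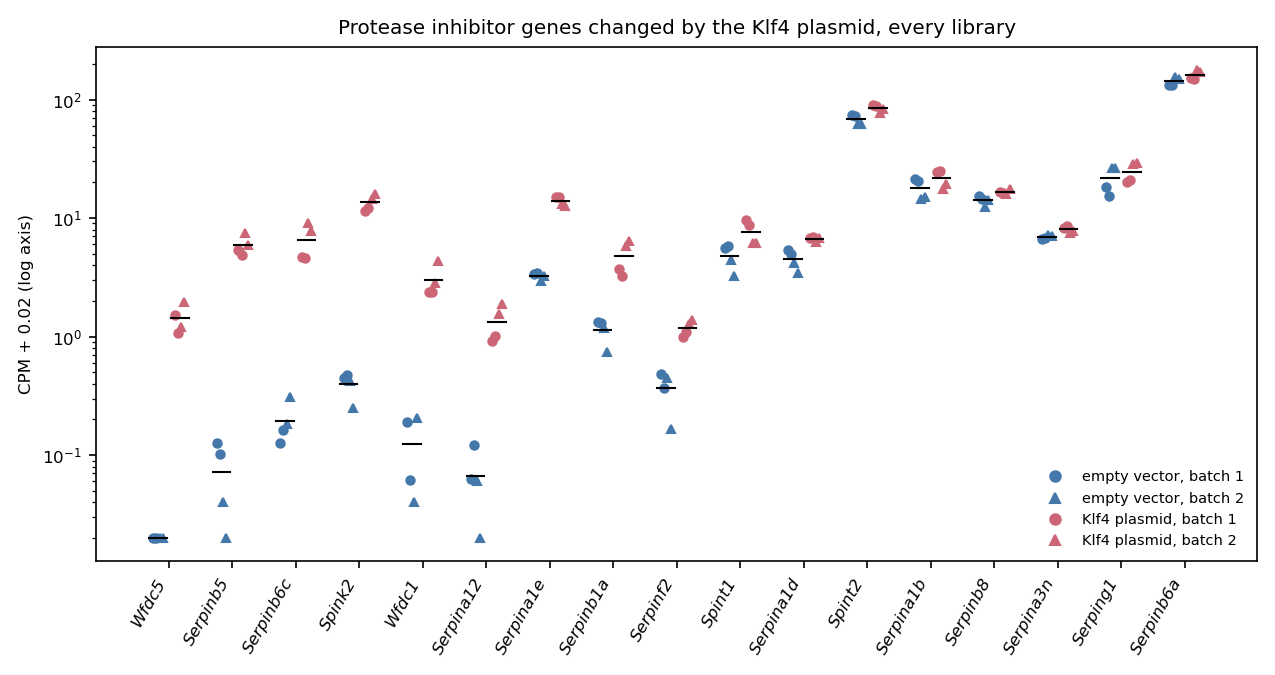
Level of the 17 members that rose, as CPM plus 0.02 on a log axis, with 1 point per library (blue, empty vector; red, Klf4 plasmid; circles, batch 1; triangles, batch 2) and bars at the group means. Genes are ordered by log2 fold change, and the 9 on the left start below 4 CPM in control, while Spint2 and Serpinb6a on the right start above 60 CPM and move little.

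Clade b, the intracellular serpins, held the largest serpin rise. Of 7 tested Serpinb genes, 5 rose (71.4%, where 36.6% of all tested genes changed and 21.1% were higher) and 2 did not pass the test. The 71.4% includes Serpinb5 and Serpinb6c, which passed the filter through the Klf4 libraries and could only come out higher. Serpinb5 (ENSMUSG00000067006) lies on chromosome 1, 106861173 to 106883348, plus strand, in GRCm38. It encodes maspin, a serpin of epithelial cells such as those of breast and skin that does not act as a classical protease trap. Control libraries 1 to 4 had 5, 4, 1 and 0 counts, and Klf4 libraries had 278, 221, 391 and 314. The gene was thus nearly silent in every control library and present in every Klf4 library. Its level went from 0.0522 ± 0.0502 to 5.91 ± 1.11 CPM (SD, n = 4), with a log2FC of 6.76 (± 0.28 SE, edgeR adjusted p 5.77e-15). The summed counts rose 115.1-fold, with a 95% interval of 62.4 to 240.6 that covers counting error only. Without control replicate 1 the log2FC was 7.37.

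Serpinb6c (ENSMUSG00000052180, chromosome 13, 33879816 to 33905708, minus strand) is one of several mouse relatives of the cathepsin G inhibitor Serpinb6a. It had 0.106, 0.144, 0.162 and 0.290 CPM in control libraries 1 to 4 and 4.64, 4.55, 9.01 and 7.83 CPM in Klf4 libraries 1 to 4. The groups did not overlap, and the batch 2 Klf4 libraries were the higher ones. Its log2 fold change was 5.19 (SE 0.18, edgeR adjusted p 1.73e-16).

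Serpinb1a (ENSMUSG00000044734, chromosome 13, 32842092 to 32851185, minus strand) encodes an inhibitor of neutrophil elastase, cathepsin G and proteinase 3. It had 1.32, 1.27, 1.16 and 0.725 CPM in control and 3.68, 3.23, 5.76 and 6.39 CPM in Klf4 libraries. All Klf4 libraries were higher than all control libraries, and again those of batch 2 were the highest. The log2 fold change was 2.06 (SE 0.19, edgeR adjusted p 1.12e-08).

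The other 2 raised clade b genes were more abundant and moved little. Serpinb8, an inhibitor of the proprotein convertase furin, had 15.3, 14.6, 12.4 and 14.1 CPM in control and 16.7, 16.2, 16.0 and 17.5 CPM in Klf4 libraries (log2FC 0.24 ± 0.06 SE, edgeR adjusted p 0.00477). The groups did not overlap for Serpinb8, although its call did not hold in batch 1 alone (log2 fold change 0.13, edgeR adjusted p 0.251). Serpinb6a had 134, 131, 154 and 150 CPM in control and 153, 150, 176 and 170 CPM in Klf4 libraries, with a log2FC of 0.19 (± 0.03 SE, edgeR adjusted p 6.7e-06). Its groups overlapped across batches but not within them, and without the batch term the adjusted p was 0.0601. Exons of Serpinb6a overlap those of Nqo2, Ripk1 and 1110046J04Rik on the other strand, and since the strand setting of the counting is not given in the sources used here, its counts are uncertain.

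Serpinb9, the inhibitor of granzyme B, and Serpinb1c did not pass the test, with log2 fold changes of -0.02 (SE 0.19) and -0.17 (SE 0.14). Serpinb1c lies next but one to Serpinb1a on chromosome 13 and had 1.99 to 3.53 CPM in control and 1.90 to 2.61 CPM in Klf4 libraries. Of the 21 Serpinb genes left out by the filter, 9 had no count in any library, and the most in any of the others was 16.

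**Figure D2:**
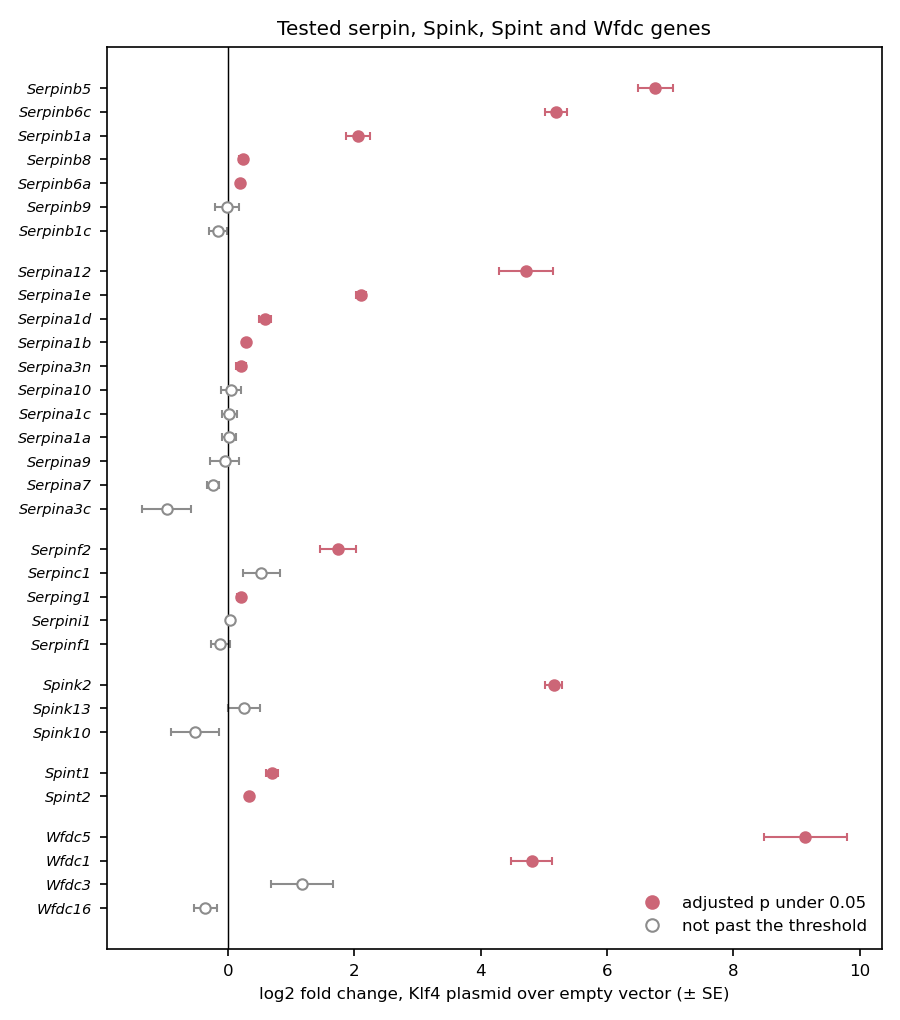
Log2 fold change (Klf4 plasmid over empty vector, with SE) of the tested members by family, with 1 gene not shown, filled where the adjusted p was under 0.05. The 17 filled points all lie right of 0, and the open points fall on both sides. The value of Wfdc5 depends on the small count that edgeR adds, since its controls had no counts.

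Clade a holds many of the plasma serpins. Of 11 tested Serpina genes, 5 rose (45.5%, where 36.6% of all tested genes changed and 21.1% were higher) and 6 did not pass the test. The 45.5% includes Serpina12, which passed the filter through the Klf4 libraries and could only come out higher. The median log2 fold change of the 11 was 0.05. Serpina12 (ENSMUSG00000041567, chromosome 12, 104028769 to 104044443, minus strand) encodes vaspin, a serpin released by fat tissue that inhibits the kallikrein Klk7. Control libraries held 2, 5, 2 and 0 counts of it, and Klf4 libraries 46, 45, 80 and 98. All control libraries were close to silent, and the Klf4 libraries of batch 2 were the highest. The level went from 0.0464 ± 0.0423 to 1.32 ± 0.455 CPM (SD, n = 4), with a log2FC of 4.72 (± 0.43 SE, edgeR adjusted p 6.23e-09) and a ratio of summed counts of 28.6 (95% counting interval 14.8 to 63.2). Without control replicate 2, which held 5 of the 9 control counts, the log2FC was 5.54.

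The mouse carries several copies of the gene for alpha-1 antitrypsin, the main inhibitor of neutrophil elastase in plasma, and 5 of these copies were tested. Serpina1e (ENSMUSG00000072849, chromosome 12, 103946931 to 103958975, minus strand) had 3.33, 3.45, 2.92 and 3.23 CPM in control and 15.0, 15.0, 13.1 and 12.5 CPM in Klf4 libraries. The groups were far apart and the spread within each was small (3.23 ± 0.227 and 13.9 ± 1.28 CPM, SD, n = 4). Its log2 fold change was 2.10 (SE 0.08, edgeR adjusted p 5.63e-16).

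The other copies moved less. Serpina1d went from 4.47 ± 0.843 to 6.67 ± 0.244 CPM (log2FC 0.59 ± 0.10 SE, edgeR adjusted p 4.81e-05), with no overlap between groups. Serpina1b went from 17.8 ± 3.65 to 21.6 ± 3.73 CPM (SD, n = 4; log2FC 0.28 ± 0.05 SE, edgeR adjusted p 0.000118). The Serpina1b groups overlapped because batch 1 lay above batch 2 in both, and without the batch term its adjusted p was 0.221. Serpina1a and Serpina1c did not pass the test, both with a log2FC of 0.02 (± 0.11 SE and 0.12).

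The share of Serpina1e in the summed counts of the 5 copies was 8.79, 9.29, 10.4 and 12% in control libraries 1 to 4 and 27.8, 27.6, 29.7 and 28.0% in Klf4 libraries 1 to 4. The share was higher in every Klf4 library than in any control library. The ratio of Serpina1e to Serpina1a counts was 0.808 to 1.11 in control and 3.53 to 4.12 in Klf4 libraries. These copies share sequence. Of all stretches of 50 bases in the annotated transcripts, 29.5% of those of Serpina1b and 34.6% of those of Serpina1e also occur in another gene, 50.9% for Serpina1d, 57.6% for Serpina1a and 79.3% for Serpina1c. How reads with several possible origins were counted is not given in the sources used here, so the split between copies is uncertain.

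**Figure D3:**
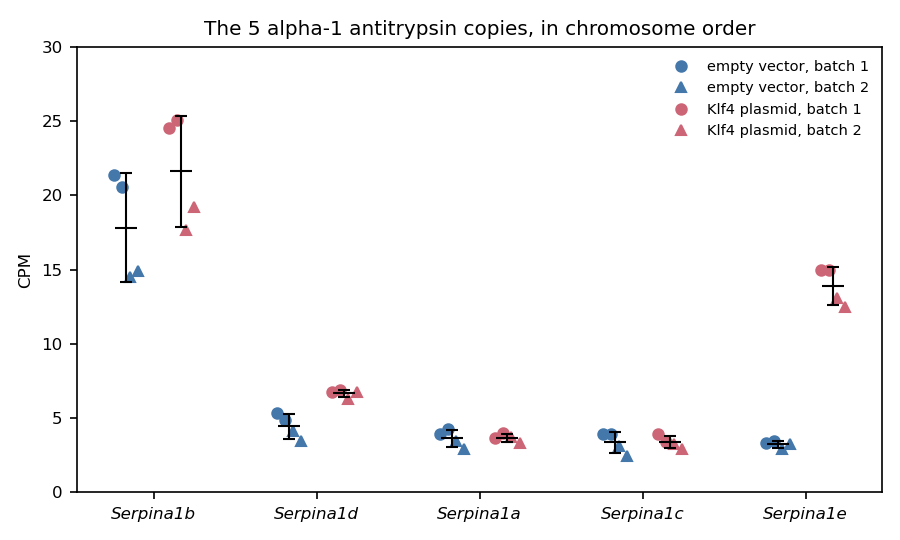
CPM of the 5 tested alpha-1 antitrypsin copies in every library (blue, empty vector; red, Klf4 plasmid; circles, batch 1; triangles, batch 2), with the mean and SD of each group (n = 4). Serpina1e rises from about the level of Serpina1a and Serpina1c to between 12.5 and 15.0 CPM, while Serpina1a and Serpina1c overlap between groups.

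The stretch upstream of Serpina1e and that of Serpina1b, the most abundant copy, are shown to compare a copy that moved much with one that moved little. Each is the 250 bases before the start that RefSeq annotates (GRCm38.p6, minus strand, written 5′ to 3′), at chr12:103956898-103957147 for Serpina1e and chr12:103738190-103738439 for Serpina1b.
Serpina1e: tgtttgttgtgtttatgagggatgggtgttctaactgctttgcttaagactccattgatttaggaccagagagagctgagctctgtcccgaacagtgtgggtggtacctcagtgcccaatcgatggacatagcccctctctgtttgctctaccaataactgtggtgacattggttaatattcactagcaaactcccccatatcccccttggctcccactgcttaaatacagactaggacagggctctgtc
Serpina1b: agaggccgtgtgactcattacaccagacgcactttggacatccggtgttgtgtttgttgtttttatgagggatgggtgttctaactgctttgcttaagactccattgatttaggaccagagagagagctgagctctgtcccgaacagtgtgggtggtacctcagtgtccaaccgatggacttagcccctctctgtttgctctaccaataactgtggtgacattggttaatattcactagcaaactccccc
The 2 windows align over 200 columns with 194 identical bases, 4 mismatches and 2 gap columns. They are offset by 50 bases, since the annotated start of Serpina1e lies further downstream in the shared sequence. The same holds against the other copies, at 95.4 to 97.0% identity and offsets of 50 to 61 bases. GENCODE places the 5′ end of Serpina1e 2078 bases from the RefSeq start and that of Serpina1b 92184 bases away, so which start was used in these cells is not known.

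Serpina3n, an inhibitor related to human antichymotrypsin, had 6.65, 6.78, 7.14 and 7.06 CPM in control and 8.19, 8.57, 7.53 and 7.74 CPM in Klf4 libraries. The groups did not overlap, and the gap was narrow in batch 2 (log2FC 0.21 ± 0.08 SE, edgeR adjusted p 0.0363). This call was the least stable of the 17. Blocking on the replicate number ended it (adjusted p 0.0572), as did the DESeq2 Wald test (0.0689) and 5 of the 8 fits that left out 1 library: without control replicate 1 (0.144) or 2 (0.114), or without Klf4 replicate 1 (0.0968), 2 (0.131) or 4 (0.0566).

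Among the Serpina genes that did not pass, Serpina7, which encodes the thyroxine carrier thyroxine-binding globulin, had 4.82, 5.18, 5.21 and 4.81 CPM in control and 4.47, 3.91, 4.32 and 4.23 CPM in Klf4 libraries. Every Klf4 library lay below every control library, with a log2FC of -0.24 (± 0.09 SE) and an edgeR adjusted p of 0.0509. It was called lower without control replicate 1 (0.0436) or 4 (0.0471) or Klf4 replicate 1 (0.0492). Serpina3c had a log2FC of -0.97 (± 0.39 SE, edgeR adjusted p 0.0563) where control libraries held 28, 21, 15 and 30 counts and Klf4 libraries 25, 13, 4 and 10, with overlap. Serpina3c was called lower with no filter (0.0195), in batch 2 alone (0.0242), and without control replicate 2 (0.0228) or Klf4 replicate 1 (0.0220). Serpina9 and Serpina10, an inhibitor of coagulation factor Xa, had log2 fold changes of -0.05 (SE 0.23) and 0.05 (SE 0.16).

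The remaining serpins of clades c to i comprised 6 tested genes, of which 2 rose (33.3%, near the 36.6% of all tested genes that changed). Serpinf2 (ENSMUSG00000038224, chromosome 11, 75431732 to 75439591, minus strand) encodes the plasmin inhibitor alpha-2 antiplasmin. It had 22, 17, 21 and 7 counts in control and 50, 49, 66 and 72 counts in Klf4 libraries. The groups did not overlap, and the level went from 0.347 ± 0.143 to 1.17 ± 0.177 CPM (SD, n = 4; log2FC 1.74 ± 0.29 SE, edgeR adjusted p 4.16e-05).

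Serping1, the gene of the complement C1 inhibitor, had 18.2, 15.2, 26.6 and 26.5 CPM in control and 20.2, 20.8, 28.5 and 29.2 CPM in Klf4 libraries. Batch 2 was higher than batch 1 in both groups, and within each batch both Klf4 libraries lay above both controls (log2FC 0.20 ± 0.06 SE, edgeR adjusted p 0.00657). Without control replicate 2 the log2 fold change was 0.12 with an adjusted p of 0.0641, and without the batch term the adjusted p was 0.523.

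Serpini1, the gene of the tissue plasminogen activator inhibitor neuroserpin, was among the most abundant members at 56.7 to 60.4 CPM in control and 58.0 to 61.7 CPM in Klf4 libraries, and did not pass the test (log2FC 0.04 ± 0.04 SE). Serpinf1, which encodes the non-inhibitory pigment epithelium-derived factor, and Serpinc1, which encodes antithrombin, had log2 fold changes of -0.12 (SE 0.15) and 0.53 (SE 0.30). Serpinc1 was called higher in batch 2 alone (adjusted p 0.0408) and without Klf4 replicate 1 (0.0332). Exons of Serpinc1 overlap those of Zbtb37 on the other strand.

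Among the small-domain inhibitors, 3 genes went from a trace to a clear signal. Spink2 (ENSMUSG00000053030, chromosome 5, 77205107 to 77211471, minus strand) encodes a Kazal inhibitor of the sperm protease acrosin and is known from the testis. It had 20, 22, 20 and 11 counts in control and 593, 553, 767 and 842 counts in Klf4 libraries. All Klf4 libraries stood far above all controls (0.378 ± 0.102 and 13.6 ± 2.08 CPM, SD, n = 4), with a log2FC of 5.15 (± 0.14 SE, edgeR adjusted p 3.23e-18). Per kb of exonic length Spink2 reached 17.2 CPM per kb in Klf4 libraries, from 0.479 in control, close to the 18.7 CPM per kb of Spint2 in the same libraries. Spink10 and Spink13 did not pass the test (log2 fold changes -0.52, SE 0.38, and 0.25, SE 0.25).

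Wfdc5 (ENSMUSG00000040154, chromosome 2, 164176327 to 164182742, minus strand) had no count in any control library and 77, 48, 62 and 102 counts in Klf4 libraries. With a floor of 3 counts per control library, the Klf4 level, 1.42 ± 0.390 CPM (SD, n = 4), came out at least 22.8-fold higher than control (edgeR adjusted p 9.16e-10). Wfdc1 (ENSMUSG00000023336, chromosome 8, 119666365 to 119688222, plus strand) encodes a secreted protein first described in prostate stroma. It had 8, 2, 1 and 9 counts in control and 123, 106, 148 and 230 in Klf4 libraries, and the groups were far apart. The log2 fold change was 4.81 (SE 0.32, edgeR adjusted p 2.89e-11) and the ratio of summed counts 29.0 (95% counting interval 18.6 to 47.8). Wfdc3 had a log2FC of 1.17 (± 0.49 SE) and Wfdc16 one of -0.36 (± 0.18 SE), and neither passed the test (edgeR adjusted p 0.0663 and 0.125). With 6, 12, 0 and 9 control counts, Wfdc3 passed the filter through the Klf4 libraries and could only come out higher. Wfdc3 was called higher by limma-voom (adjusted p 0.0318) and without control replicate 2 (0.0441) or 4 (0.0281), and Wfdc16 lower without control replicate 3 (0.0433).

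Both tested Spint genes rose (21.1% of all tested genes did). They encode membrane-bound Kunitz inhibitors of matriptase, hepsin and hepatocyte growth factor activator on epithelial cells. Spint1 (ENSMUSG00000027315) had 5.59, 5.75, 4.40 and 3.21 CPM in control and 9.54, 8.66, 6.20 and 6.18 CPM in Klf4 libraries, with a log2FC of 0.69 (± 0.09 SE, edgeR adjusted p 2.94e-06). Spint2 (ENSMUSG00000074227) had 74.0, 73.0, 62.6 and 62.1 CPM in control and 90.6, 88.7, 77.6 and 83.2 CPM in Klf4 libraries, with a log2FC of 0.33 (± 0.03 SE, edgeR adjusted p 4.16e-08). In both genes every Klf4 library lay above every control library, and batch 1 was higher than batch 2 within each group.

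Promoters of raised members are shown because Klf4 is a factor known to bind GC-rich CACCC-type elements, and these members rose together. RefSeq windows of 250 bases before the start (GRCm38.p6) were matched for 24 of the 33 tested members and 13 of the 17 raised ones. Wfdc1, Wfdc5, Serpinb1a and Serping1 were not matched. The letters CCNCNCCC on either strand are in capitals, overlapping matches joined. The windows lie at chr1:106860925-106861174 (plus strand) for Serpinb5, chr13:33905192-33905441 (minus strand) for Serpinb6c, chr5:77211472-77211721 (minus strand) for Spink2 and chr12:104044444-104044693 (minus strand) for Serpina12, all written 5′ to 3′.
Serpinb5: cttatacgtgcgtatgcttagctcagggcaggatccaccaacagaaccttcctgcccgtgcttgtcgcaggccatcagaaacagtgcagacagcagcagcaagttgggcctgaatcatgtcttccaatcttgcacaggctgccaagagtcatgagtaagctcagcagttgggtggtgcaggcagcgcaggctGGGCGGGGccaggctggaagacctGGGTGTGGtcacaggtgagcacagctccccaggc
Serpinb6c: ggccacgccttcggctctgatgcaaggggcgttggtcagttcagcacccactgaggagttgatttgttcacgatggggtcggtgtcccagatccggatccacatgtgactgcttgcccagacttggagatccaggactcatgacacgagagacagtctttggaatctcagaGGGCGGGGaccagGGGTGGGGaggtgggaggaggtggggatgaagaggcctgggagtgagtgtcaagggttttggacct
Spink2: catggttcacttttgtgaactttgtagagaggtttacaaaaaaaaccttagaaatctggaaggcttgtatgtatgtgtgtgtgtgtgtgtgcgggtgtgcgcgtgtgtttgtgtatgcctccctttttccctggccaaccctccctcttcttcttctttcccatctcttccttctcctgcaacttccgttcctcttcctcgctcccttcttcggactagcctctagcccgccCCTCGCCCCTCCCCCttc
Serpina12: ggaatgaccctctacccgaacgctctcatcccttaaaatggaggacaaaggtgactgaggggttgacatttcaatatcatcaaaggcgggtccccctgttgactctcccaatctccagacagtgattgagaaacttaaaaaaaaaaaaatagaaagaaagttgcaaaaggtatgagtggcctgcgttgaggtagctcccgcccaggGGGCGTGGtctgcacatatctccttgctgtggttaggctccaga
The 4 windows hold 2, 2, 3 and 1 matches, all within 79 bases of the RefSeq start. GENCODE places the 5′ end of Serpinb6c 517 bases from that start, so its window lies inside the GENCODE gene. Which start was used in these cells is not known. The stricter letters CCACNCCC, which are a subset of CCNCNCCC, occur in Serpinb5 and Serpina12. Of the 6 matched members with a log2FC of at least 1, these 4 hold CCNCNCCC, while Serpinf2 and Serpina1e do not.

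CCNCNCCC was found in 7 of the 13 matched raised members (53.8%), against 50.1% of all 20592 matched promoters and 63.7% of those of tested genes. CCACNCCC was found in 2 of the 13 (15.4%), against 17.1% and 21.1%. The shorter CACCC, which overlaps many of these matches, was found in 9 of the 13 (69.2%), against 52.7% and 58.1%. The matched windows of both Spint genes held CCNCNCCC, while none of the 5 tested alpha-1 antitrypsin copies did, Serpina1e included. A match of letters is a description and not evidence of binding.

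Many members lie in clusters, where some raised genes had neighbours with few or no counts and others had neighbours that were also expressed. On chromosome 1, 12 Serpinb genes lie between 106861173 and 107610484. Serpinb5 at one end and Serpinb8 at the other were tested and rose, while the 10 between them had at most 6 counts in any library. On chromosome 13, 16 Serpinb genes included 5 tested and 3 raised (60% of those tested, against 21.1% of all tested genes). The 60% includes Serpinb6c, which passed the filter through the Klf4 libraries and could only come out higher. Serpinb1a lies at one end and the neighbours Serpinb6c and Serpinb6a at the other. The start of Serpinb6c lies 1037.7 kb from that of Serpinb1a.

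The Serpina cluster on chromosome 12 held 25 members, 10 tested and 5 raised (50% of those tested, against 21.1% of all tested genes). The 50% includes Serpina12, which passed the filter through the Klf4 libraries and could only come out higher. Serpina1e and Serpina12 start 332.1 and 414.0 kb from the first member, with Serpina11, which was not tested, and Serpina9, which did not pass, between them. The Wfdc cluster on chromosome 2 held 14 members, of which 3 were tested and only Wfdc5 rose (33.3% of those tested). Wfdc5 and Wfdc3 passed the filter through the Klf4 libraries and could only come out higher. Next to Wfdc5, the genes Wfdc12, Wfdc15a and Wfdc15b had at most 4 counts in any library. Exons of Wfdc5 overlap those of A730032A03Rik on the other strand over 81 bases.

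**Figure D4:**
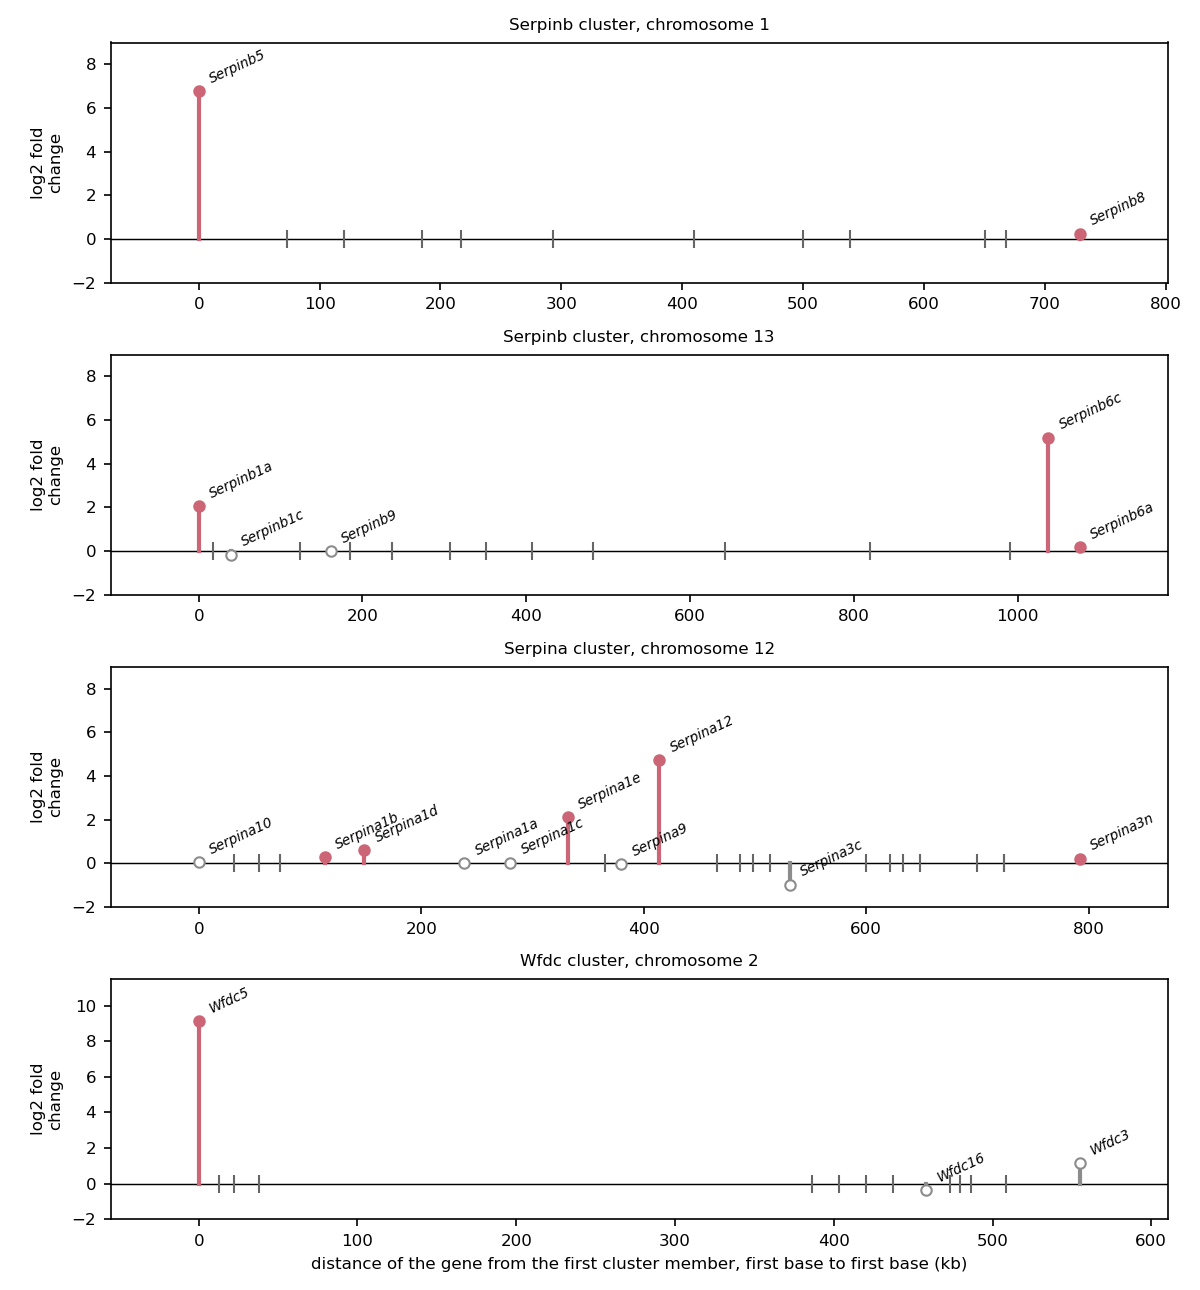
Log2 fold change of tested members along 4 gene clusters, by distance from the first member in kb. Filled red points passed the test, open grey points did not, and grey ticks on the 0 line are members with too few counts to test. Serpinb5, Serpinb6c, Serpina12 and Wfdc5 stand out from neighbours near 0 or not tested.

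All 17 raised members had a positive log2 fold change in each batch. In batches 1 and 2 it was 5.73 and 9.03 for Serpinb5, 5.17 and 5.21 for Serpinb6c, 4.75 and 5.58 for Spink2, 4.46 and 5.09 for Wfdc1, and 3.64 and 6.20 for Serpina12. For Serpina1e it was 2.14 and 2.06, and for Serpinf2 1.32 and 2.18. The difference between batches passed the test for 1 member, Serpinb1a, with 1.41 in batch 1 and 2.69 in batch 2 (edgeR interaction test, adjusted p 0.0271), where 0.766% of all tested genes passed. For Serpinb5 and Serpina12 the interaction did not pass (adjusted p 0.192 and 0.397), with at most 2 counts in any batch 2 control library. Klf4 itself was higher in batch 2, at 4903 and 5853 CPM against 4873 and 4532 CPM in batch 1, and its part in these values was not tested.

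**Figure D5:**
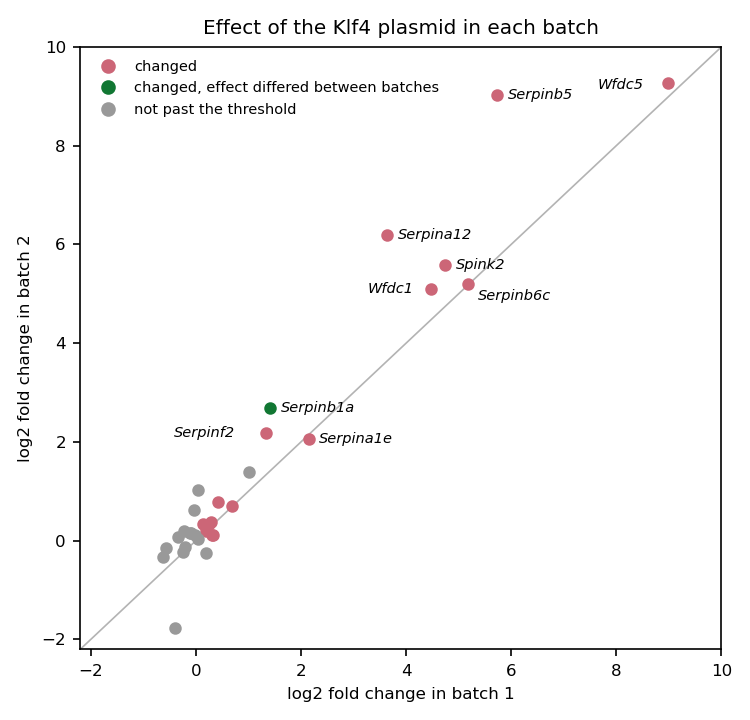
Log2 fold change of the tested members, with 1 gene not shown, in batch 1 (x axis) and batch 2 (y axis), with the line of equality. Serpinb1a, in green, is the member whose effect differed between batches, at 1.41 and 2.69, and most large rises lie on or above the line.

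The proteases that these inhibitors act on were followed in a list of 36 genes. Of 19 tested, 8 rose and 1 fell (42.1% higher, against the 21.1% background), with a median log2 fold change of 0.20. The list was chosen with earlier results of these data known, so this share is a description and not a test. The largest changes were in Klk10, Klk14 and St14. St14 encodes matriptase, the membrane protease that Spint1 and Spint2 inhibit, and had 0.212, 0.267, 0.162 and 0.207 CPM in control and 5.96, 5.88, 5.44 and 7.22 CPM in Klf4 libraries (log2FC 4.83 ± 0.18 SE, edgeR adjusted p 1.1e-15). Its rise was 28.9-fold by summed counts (95% counting interval 21.2 to 40.5), where the ratios of mean CPM for these inhibitors were 1.61 and 1.25. In Klf4 libraries the mean level of St14 was 6.125 CPM, that of Spint1 7.645 CPM and that of Spint2 85.0 CPM. These levels are not scaled to exonic length, so they do not compare transcript numbers between the genes. The kallikrein genes Klk14 and Klk10 had at most 5 and 0 counts in any control library and 301 to 518 and 56 to 89 in Klf4 libraries. Both passed the filter through the Klf4 libraries alone, so they could only come out higher, and the share of 42.1% includes them. The St14 controls, with 10, 13, 8 and 10 counts, lay close to the filter and alone would not have passed it. Without control replicate 3, which held 5 of the 7 Klk14 control counts, its log2FC went from 7.80 to 8.97. The gene Hpn, for hepsin, had a log2FC of 0.99 (± 0.26 SE, edgeR adjusted p 0.00486). Plat, which encodes tissue plasminogen activator, the target of neuroserpin, had one of 0.14 (± 0.04 SE, edgeR adjusted p 0.00955), and Plau, for urokinase, did not pass.

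Inhibitors of other families were followed in a list of 28 genes. Of 17 tested, 9 rose and 2 fell (52.9% higher, against 21.1% of all tested genes, where 15.5% were lower), with a median log2 fold change of 0.13. This list, too, was chosen with earlier results of these data known. Timp1, a tissue inhibitor of metalloproteases, rose most, with 0.255, 0.493, 0.325 and 0.249 CPM in control and 11.3, 10.6, 17.7 and 18.8 CPM in Klf4 libraries (log2FC 5.44 ± 0.15 SE, edgeR adjusted p 6.02e-18). Timp3 had a log2FC of 1.09 (± 0.11 SE, edgeR adjusted p 1.98e-08). Itih4, an inter-alpha-trypsin inhibitor chain, had one of 1.80 (± 0.46 SE, edgeR adjusted p 0.00353) on at most 35 counts in any library, with overlap between groups, and one of 2.41 without control replicate 2. Its control counts of 3, 13, 5 and 1 were too few for the filter, which it passed through the Klf4 libraries. Itih4 could thus only come out higher, and the share of 52.9% includes it.

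Another list held 19 receptors, cofactors and clients of the system. Of 16 tested, 8 rose and 2 fell (50% higher, against the same 21.1%), with a median log2 fold change of 0.27. Earlier results of these data were known when this list was chosen, so the share is again a description. Met, the receptor of hepatocyte growth factor, had 1 count over the 4 control libraries and 43, 24, 57 and 54 in the Klf4 libraries, a ratio of 170.2 (95% counting interval 30.1 to 6758). The ratio rests on the 1 count of control replicate 1, without which all controls were at 0. Mst1r, the receptor of the related macrophage-stimulating protein, had a log2FC of 3.02 (± 0.36 SE, edgeR adjusted p 3.95e-07). Met and Mst1r passed the filter through the Klf4 libraries alone and could only come out higher, and the share of 50% includes them. Plaur, the urokinase receptor, had 1.53, 1.21, 0.548 and 0.808 CPM in control and 5.34, 4.48, 6.12 and 6.58 CPM in Klf4 libraries, with a log2FC of 2.47 (± 0.20 SE, edgeR adjusted p 6.17e-10).

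The 67 members that did not pass the filter had at most 21 counts in any library, and 27 of them had none. With no filter, 40 of these 67 entered the test and none passed. The highest was Serpine2, the gene of protease nexin, with 2, 6, 5 and 5 counts in control and 9, 21, 8 and 6 counts in Klf4 libraries. Others leaned lower with overlap. Serpinb6e had 16, 5, 2 and 14 counts in control and 7, 2, 4 and 2 in Klf4 libraries. Serpinb1-ps1 had 2, 9, 8 and 8 against 6, 0, 0 and 6. Serpinb2, a serpin of macrophages and keratinocytes, had no count in control and 2, 1, 3 and 2 counts in Klf4 libraries, at or under the floor of 3 counts and so not distinguishable at this depth. Spink5, the inhibitor of skin kallikreins, had at most 4 counts in any library, and the skin serpins Serpinb3a, Serpinb12 and Serpinb13 had at most 1, 5 and 0. The genes named in this paragraph were singled out after their values were seen.

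Markers of other cell types moved with some of these genes. The summed level of 6 keratinocyte markers was 4.01 to 4.44 CPM in control and 22.6 to 34.4 CPM in Klf4 libraries, with 2 of 3 tested higher and Ivl at 0 in every library. That of 6 fibroblast markers was 2.61 to 3.86 and 20.3 to 26.7 CPM, with 2 of 3 tested higher and Lum at 0, and that of 5 duct markers 2.57 to 4.36 and 6.87 to 7.93 CPM, with 2 of 3 tested higher. The 5 hepatocyte markers, from the tissue that makes most plasma serpins, summed to 14.9 to 20.9 CPM in control and 14.2 to 19.4 CPM in Klf4 libraries, with none of 3 tested called. Endothelial markers summed to 4.10 to 4.42 and 5.01 to 5.28 CPM and those of white blood cells to 9.20 to 10.1 and 9.89 to 12.1 CPM, each with 1 higher. Acinar markers summed to 1.68 to 4.24 and 1.65 to 3.02 CPM. Each list is short, and 21.1% of all tested genes were higher. The part of these markers in the changes of the inhibitors was not tested.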

How the data were processed

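The deposited values were whole-number read counts per gene, 1 column per library, neither normalised nor pooled by the authors. The submitters' processing notes name FastQC, STAR, featureCounts, edgeR and the mm10 build. The strand setting, the treatment of reads with several origins and the annotation are not given in the sources used here. All 55536 pairs of identifier and symbol matched GENCODE M21 (GRCm38), which gave coordinates, exonic lengths and overlaps.

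Genes were kept by filterByExpr (minimum count 10), and 18266 were tested in edgeR 4.0.16 (R 4.3.3) with TMM factors, terms for batch and plasmid, and the quasi-likelihood test. P-values were Benjamini-Hochberg adjusted over all tested genes. The SE is the log2 fold change divided by the square root of the F statistic. CPM values use TMM-scaled library sizes, and intervals cover counting error only. The procedure was tested on simulated counts. Libraries of a group differed beyond sampling noise (chi-square per degree of freedom at least 4.23), so all 8 were kept. Same-numbered libraries deviated together (r 0.459 to 0.613 over 10500 genes). With batch means removed r was -0.04 in batch 1 and 0.08 in batch 2, where both pairs of a batch give the same value by construction. The pairing comes from the replicate numbers in the sample titles.

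Values in full were to be given for called members with a log2 fold change of at least 1, called lower members and the 5 most abundant, and for the 3 largest called changes of each list. Values of the other members and of Hpn, Plat and Plau were added after the values were seen. The members and lists were chosen with earlier results of these data known. Alternatives were other batch terms, scalings, filters, a stricter threshold, DESeq2 1.42.0, limma-voom (limma 3.58.1), single batches and the omission of each library. The scaling on abundant genes was chosen after seeing the data. Promoter windows came from RefSeq (GRCm38.p6) and were aligned with Biopython 1.88. The values of 1 tested member that did not pass the test are not reported here.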

Additional observations from a re-analysis of the deposited data

Results flagged for a closer look

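In 58 sets of 4 values, 3 held a library set apart from its group; chance alone gives 1 in 20, or about 2.9. Klf4 replicate 2 had 45417853 counts in all, below the 51891997 to 52731176 of the other Klf4 libraries. Without it 16 members changed, all higher. For Met, control replicate 1 had 0.0212 CPM, which is 1 count, while the other controls had none. For Mst1r, Klf4 replicate 3 had 1.33 CPM, above the 0.795 to 0.832 CPM of the others.

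For 3 of the genes named here the response was unequal in the 2 batches, by edgeR's interaction test. The difference of the log2 fold changes, batch 2 minus batch 1, was 1.27 for Serpinb1a (adjusted p 0.0271), 1.38 for Plaur (0.0137) and 0.371 for Klf4 (0.0057). With the DESeq2 Wald test the adjusted p was 0.0307 for Serpinb1a, 0.0106 for Plaur and 0.327 for Klf4. For Plaur the log2 fold change was 1.84 in batch 1 and 3.23 in batch 2, where controls 1 and 2 had 1.53 and 1.21 CPM and controls 3 and 4 had 0.548 and 0.808.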

How the results depend on the processing

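Under all 20 alternatives the members that changed numbered 13 to 19 and were mostly higher, with at most 2 lower (Serpina3c and Serpina7, without Klf4 replicate 1). None of the 17 raised members, nor Klf4 or the 3 largest changes of each list, changed sign where tested. Leaving out 1 library gave 16 to 19 changed members and 5889 to 7074 changed genes in all. Without the batch term 13 members and 4116 genes changed, 71.8% of the latter higher, against 6684 and 57.7% with it. With scaling factors from abundant genes, 72.7% of calls over all genes were higher and all 17 member calls held, and the median log2 fold change of all genes moved from -0.01 to 0.02. Under a replicate block, which replaces batch by the pairing of numbers, 16 members and 6284 genes changed, and Serpina3n was the only member call lost. Calls for the 9 members with a log2 fold change of at least 1, and for Spint1, Spint2 and Serpina1d, held wherever they were tested. Serpina12 and Serpinf2 fell below the filter at 1 CPM. Beside the stricter threshold of 0.01, at which its call was also lost, Serpina3n lost its call in 10 of the other 19 alternatives, Serping1 in 3, and Serpina1b, Serpinb6a and Serpinb8 in 1 each. Itih4 lost its call in batch 2 alone (adjusted p 0.0518).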
